A study of Mus musculus with 18 samples.

Results

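CpGs with high methylation only in liver are single CpG dinucleotides whose cytosines were mostly methylated in mouse liver and mostly unmethylated in gonadal adipose tissue and hypothalamus of the same study. They were selected by level. A CpG on chromosomes 1 to 19 was kept when it was listed for all 3 tissues with at least 20 reads in each of the 6 pools, and when its level was at least 65% in liver and at most 35% in both other tissues. The level of a tissue is the share of methylated reads over both of its pools, weighted by reads. Of 1275720 CpGs that the rule could choose, 1436 met it, or 0.113%.

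The study asked how bisphenol A (BPA), a building block of plastics that can bind oestrogen receptors weakly, given before birth relates to DNA methylation in offspring. C57BL/6 dams were gavaged daily with 5 mg/kg BPA in corn oil, or with corn oil alone as the control, from day 1 to day 20 after conception. Adipose, hypothalamus and liver came from male offspring aged 3 weeks, with 3 samples for each treatment and tissue and 18 in all. The 3 control litters and 4 BPA litters are not linked to single samples in the sources used here. Each deposited value is that of a pool of the 3 samples of a group, so no value below has an error between animals, and all intervals are 95% exact Clopper-Pearson intervals for counting error only. Reads were not tagged with molecular identifiers, so PCR copies may be counted more than once, and CpGs on the same read are not independent. The pools are numbered 0 and 1, and number 0 was read as control only because a label names the control group first. With the reverse numbering, each direction between pools below would turn.

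In mammals a methyl group is carried by most cytosines of CpG dinucleotides, while CpG-dense promoters are usually free of it. Tissues differ in methylation mainly at enhancers and within gene bodies, where loss of methylation usually accompanies use of a regulatory element in that cell type. Reduced representation bisulfite sequencing (RRBS) reads methylation at CpGs near the cut sites of the enzyme MspI, which cuts at CCGG, so it covers CpG-rich stretches best. In liver most DNA comes from hepatocytes, and in bulk tissue the share of cells of a type and the methylation level within cells cannot be told apart.

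The promoter sequences below are shown because they place members beside the start of a transcript, where methylation is usually discussed. RefSeq windows on GRCm38.p6, which run from 250 bases before a transcript start to 50 after it, held 27 members in 18 windows. Among 1385 members on chromosomes that the table covers this was 1.95%, against 8.68% of all CpGs that the rule could choose. Creb3l4, an endoplasmic reticulum-bound transcription factor of the CREB3 family, and Mamstr, a coactivator of MEF2 in muscle, held 3 members each. Prkcz, an atypical protein kinase C, held 1 member. Prkag2, the gamma 2 subunit of the energy sensor AMPK, and Prrt1, a protein associated with AMPA receptors, held 2 members each, all just after the start. These 5 coding genes were chosen after their values were seen. The members of Creb3l4, Mamstr and Prkcz lie before the transcript start used but still within the bodies of these genes. That start is therefore not the outer end of the gene. The Prkag2 members also lie in the body of 1500035N22Rik, and those of Prrt1 in the body of Ppt2. Trak1, also coding, held 1 member (chr9:121403402) and is not shown. The stretches are chr3:90243513-90243762 on the minus strand, chr7:45639727-45639976 on the plus strand, chr4:155345790-155346039 on the minus strand, chr5:24995704-24995733 on the minus strand and chr17:34629568-34629597 on the plus strand. The first 3 end at the base before the transcript start, and capitals mark the member CpGs.
Creb3l4: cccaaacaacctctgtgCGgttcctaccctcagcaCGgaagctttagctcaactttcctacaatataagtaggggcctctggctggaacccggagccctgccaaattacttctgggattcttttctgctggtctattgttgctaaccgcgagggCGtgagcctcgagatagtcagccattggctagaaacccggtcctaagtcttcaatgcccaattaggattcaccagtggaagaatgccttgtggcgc
Mamstr: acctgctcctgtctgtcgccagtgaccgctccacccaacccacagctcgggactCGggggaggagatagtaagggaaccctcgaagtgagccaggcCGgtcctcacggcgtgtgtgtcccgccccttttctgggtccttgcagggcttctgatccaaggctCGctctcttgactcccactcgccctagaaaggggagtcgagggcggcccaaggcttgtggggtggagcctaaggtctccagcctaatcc
Prkcz: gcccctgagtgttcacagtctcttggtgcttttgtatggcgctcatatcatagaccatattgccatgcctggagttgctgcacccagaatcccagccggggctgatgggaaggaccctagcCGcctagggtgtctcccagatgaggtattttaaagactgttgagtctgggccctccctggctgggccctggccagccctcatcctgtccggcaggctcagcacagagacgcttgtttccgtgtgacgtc
Prkag2: ctacttaaggacaggCGgCGaggctgacac
Prrt1: cCGcgctgctgctgctaccgccgctgCGcc

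In the Creb3l4 stretch, the first member (chr3:90243744) was methylated in 68.6% of 175 reads of the control liver pool and 69.8% of 202 reads of the BPA pool. At the same CpG adipose had 23.2% and 19.2%, and hypothalamus 31.9% and 33.8%, in the control and BPA pools. The capital CG nearest the start (chr3:90243607) had 78.7% of 61 and 50.9% of 53 reads in the liver pools, against 16.8% and 16.0% in adipose and 18.4% and 25.5% in hypothalamus. All 8 CpGs of the Creb3l4 window that the rule could choose had their highest level in liver, with medians of 32.9% in liver, 12.2% in adipose and 12.4% in hypothalamus. Liver methylation was thus spread unevenly over this window, and high only at the 3 members. In the Mamstr window all 14 such CpGs were highest in liver, with medians of 61.6%, 32.0% and 25.8% in liver, adipose and hypothalamus. Its member at chr7:45639781 had 70.6% of 109 and 71.3% of 87 reads in the liver pools, against 29.5% and 32.2% in adipose and 22.6% and 28.5% in hypothalamus. The Prkcz member (chr4:155345917) had 65.8% of 155 and 72.3% of 119 reads in liver, against 8.72% and 14.6% in adipose and 3.52% and 1.33% in hypothalamus.

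The paired CGs of Prkag2 lie 3 bases apart and so are read together. The first in the printed strand (chr5:24995717) had 71.8% of 301 and 67.5% of 289 reads in the liver pools, 5.6% and 7.73% in adipose and 22.7% and 29.6% in hypothalamus. In Prrt1 the second member (chr17:34629594) had 77.3% of 75 and 84.8% of 79 reads in liver, 30.9% and 25.6% in adipose and 3.12% and 2.04% in hypothalamus. Here the neuronal tissue was near 0 and adipose was close to the upper limit of the rule. Searched on both strands and with overlaps allowed, CCGG, the MspI site, stood in all 18 windows, against 52.8% of 32851 promoter windows of the same length. RRBS reads CpGs near such sites and the 18 windows each hold a read CpG, so this was largely set by the method. The 32851 windows were not limited to those with a read CpG, so the shares that follow also compare unlike sets. GGGCGG was found in Mamstr and Gm36223 among the 18 windows and in 35.7% of all windows, and CACGTG in A530010L16Rik and in 7.15% of all windows. Gm36223 and A530010L16Rik were likewise picked after their values were seen, and the matches describe letters in the windows only.

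**Figure D1:**
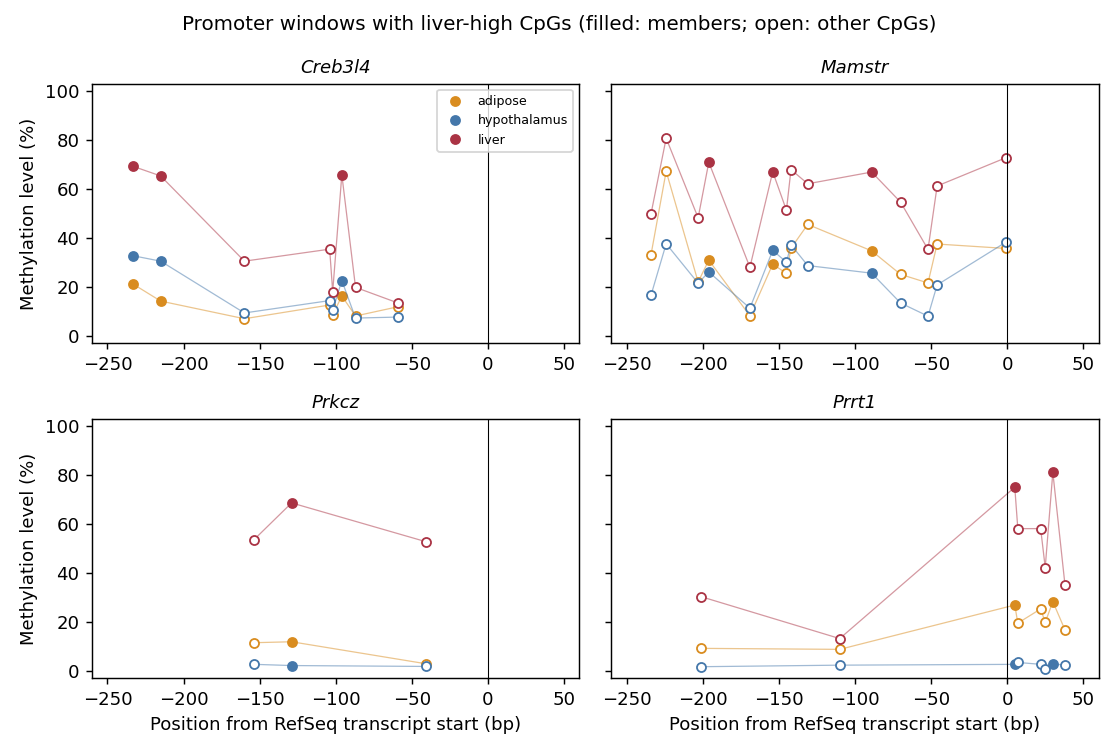
Methylation level over both pools (vertical axis, %) against position from the RefSeq transcript start (horizontal axis, bp) in 4 promoter windows. Filled points are members and open points other CpGs. In the Mamstr window all 14 CpGs are highest in liver, while in the Creb3l4 window liver is high at 3 of 8.

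The levels below were used by the rule and are given as a description. Over the 1436 CpGs the median level was 70.5% in liver (65 to 91.6%), 24.5% in adipose (0 to 35%) and 26% in hypothalamus (0 to 35%). By pool, the medians were 71.8% in control and 70.1% in BPA liver, 24.1% and 24.2% in adipose, and 26% and 25% in hypothalamus. The lowest value of a member in a liver pool was 51.1% in control and 50.9% in BPA, and the highest value in any of the other 4 pools was 50.6%. Median depth at the members was 157 and 146 reads in the liver pools, 202 and 236 in adipose, and 130 and 131 in hypothalamus. Over all CpGs that the rule could choose the medians were 59.4% in adipose, 66.2% in hypothalamus and 63.2% in liver.

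**Figure D2:**
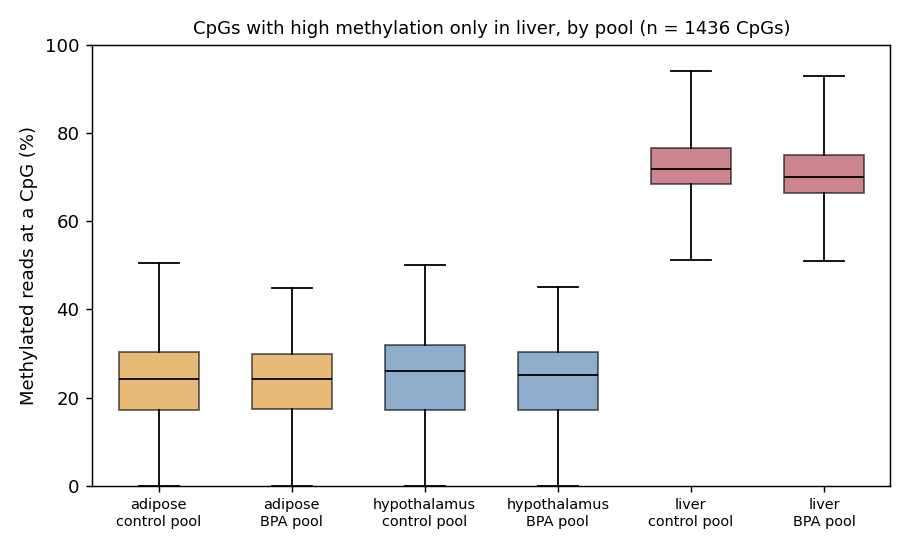
Methylated reads at a CpG (vertical axis, %) for the 1436 members in each of the 6 pools. Boxes span the quartiles with the median as a line, and whiskers reach the lowest and highest member. Liver medians are 71.8% and 70.1%, and those of the other pools lie between 24.1% and 26%.

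Many members stood close to a limit of the rule. In 666 members (46.4%) the liver level was 65 to 70%, and in 684 (47.6%) the higher of the other tissues was at 30 to 35%. Just outside the rule, 986 CpGs had a liver level of 60 to 65% with both others at most 35%, and 1170 had the higher other tissue above 35% and up to 40%. At the strong end, 131 members reached at least 80% in liver and 8 at least 90%. Both other tissues were at or under 10% in 34 members and at or under 5% in 12. The gap between liver and the higher other tissue had a median of 42.9 points (30.3 to 70.7), and it was at least 60 points in 53 members. Adipose and hypothalamus were not alike at every member. Hypothalamus was at least 10 points below adipose in 263 members, and adipose at least 10 points below hypothalamus in 262.

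The choice was read in pools that did not make it. With the same limits applied to the control pools alone, 1678 CpGs were chosen, and in the BPA pools liver was above both other tissues at 1676 of them. Their median gap was 43.9 points in the control pools that chose them and 39.0 points in the BPA pools. The full limits were met again by 734 of the 1678 (43.7%), and a gap of at least 20 points by 1583 (94.3%). Chosen on the BPA pools alone, 1494 CpGs had liver on top at 1491 in the control pools, with a median gap of 43.0 points where chosen and 39.3 points where read. The side of the difference recurred in nearly all CpGs, while the exact limits did not.

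Liver-high CpGs lay in clusters. Joined where neighbours were at most 500 bp apart, they formed 890 runs, of which 283 held at least 2 members and together 829 members (57.7%). The median span of those 283 runs was 98 bp and the longest was 882 bp. Inside the spans 829 of 1508 CpGs that the rule could choose were members (55.0%). A run of this length can lie on 1 or a few MspI fragments, so its CpGs share reads.

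Neighbouring CpGs that did not meet the rule also had higher levels in liver. At 1 to 25 bp from a member, 1078 other CpGs had mean levels of 59.5% in liver, 23.8% in adipose and 23.2% in hypothalamus, and 82.3% of them had a gap of at least 20 points in favour of liver. At 201 to 500 bp the means were 46.8%, 29.2% and 29%, and 31.0% had such a gap. At 1001 to 2000 bp they were 30.5%, 27.8% and 28.5%, and the share was 3.83%, against 1.60% of all other CpGs. The gap in mean level thus narrowed within about 1 kb, and CpGs 501 to 2000 bp away had median levels under 12% in all 3 tissues.

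**Figure D3:**
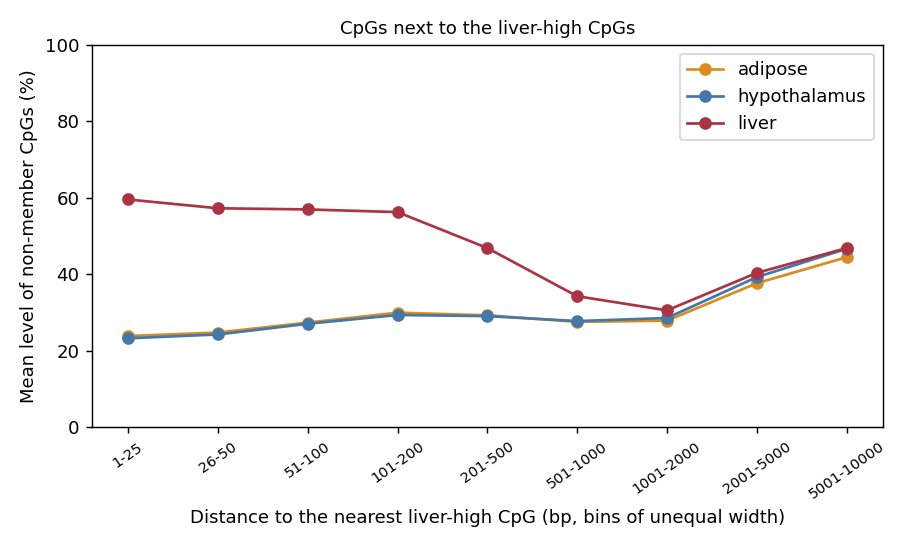
Mean level (vertical axis, %) of CpGs that are not members, in each tissue, by distance to the nearest liver-high CpG (horizontal axis, bp, bins of unequal width). Liver is at 59.5% beside a member and at 30.5% at 1001 to 2000 bp, where the other tissues are at 27.8% and 28.5%.

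By position, 1105 members (76.9%) lay in a gene body, against 67.4% of all CpGs that the rule could choose. Another 120 lay within 5 kb of a gene and 211 (14.7%) farther away, against 20.4% of all. The gene table gives no exons or introns, so these are not told apart here. The median distance to the nearest gene start was 15.7 kb, against 11.5 kb over all CpGs, and 11.8% were within 1 kb of a start, against 28.5%. Within 250 bp of a member a median of 7 CpGs was listed, against 10.0 over all. CpGs low only in liver, the mirror image by the same limits, numbered 5748. Of these 73.5% lay in gene bodies and 9.78% within 1 kb of a start, and over all 6 classes high or low in only 1 tissue the share within 1 kb was 6.19 to 11.8%, so scarcity near starts was common to all of them.

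The longest run lay in the body of Taok3, a kinase of the STE20 family (chr5:117240898-117241291). It held 15 members of 23 CpGs. In liver they ranged from 66.5 to 92.2% in the control pool and from 62.8 to 85.2% in the BPA pool, with medians of 79.2% and 78.1%. Adipose ranged from 13.5 to 34.6% and from 16.4 to 34.7%, while hypothalamus stayed between 0.962 and 9.72% in both pools. Hypothalamus was nearly unmethylated and adipose intermediate at these CpGs. The other 8 CpGs inside the span were also highest in liver, with a median of 58.2%. Over its 242 CpGs the whole Taok3 body had medians of 83.2% in adipose, 81.9% in hypothalamus and 87.4% in liver, so the run was a low spot of adipose and hypothalamus within a gene methylated in all 3.

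Tnr, which encodes tenascin-R of the neural extracellular matrix, had a run of 9 members and no other CpG in its span (chr1:159670823-159671177). Control and BPA medians were 79.3% and 69.0% in liver, 16.0% and 11.8% in adipose and 15.5% and 16.5% in hypothalamus. Depth was lower here, with median reads of 64.0 and 44.0 in the liver pools. The run in Atg7, the E1-like enzyme of autophagy, also had 9 members (chr6:114738398-114738612), among 28 CpGs, and part of it lies in Gm19040 as well. Its liver medians were 75.7% and 72.4%, those of adipose 18.5% and 25.7%, and those of hypothalamus 5.6% and 8.57%. As in Taok3, hypothalamus was the lowest tissue, and the Atg7 body as a whole was methylated in all tissues (69.3%, 72.9% and 86.4% in adipose, hypothalamus and liver). All 19 other CpGs in the span were highest in liver.

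The fourth run, of 8 members, lay far from genes (chr3:85186649-85186900), 64.1 kb from Gm31096 and 131 kb from 1700036G14Rik, both long noncoding RNAs. Its medians were 75.4% and 82.0% in the liver pools, 18.9% and 22.1% in adipose and 22.2% and 25% in hypothalamus. The run beside 2310043L19Rik (chr1:177640614-177640732) had 7 members, with medians of 78.9% and 78.8% in liver, 21.7% and 17.8% in adipose and 9.66% and 7.06% in hypothalamus. S1pr2, a receptor for sphingosine-1-phosphate, had 7 members (chr9:20972243-20972497), at 78.1% and 72.1% in liver, 22.5% and 23.7% in adipose and 22.7% and 25.8% in hypothalamus. The whole S1pr2 body, members included, had medians of 21.7% in adipose, 28.6% in hypothalamus and 70.6% in liver. The 9 CpGs within 600 bp of the run centre that were not members were all highest in liver. Their medians were 30.2% in adipose, 44.4% in hypothalamus and 77.5% in liver, so hypothalamus was above the limit of the rule there.

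Shank2, a scaffold of excitatory synapses, showed the lowest levels outside liver among the 15 leading runs. Its run of 6 members (chr7:144283849-144284676) had medians of 78.8% and 61.2% in the liver pools, 6.16% and 4.79% in adipose and 4.04% and 1.14% in hypothalamus. The liver pools were read at a median depth of only 53.5 and 49.5 here, and no member of the run was called between pools. Tle3, a corepressor of the Groucho family, had 6 members (chr9:61405238-61405410), at 76.8% and 72.8% in liver, 11.4% and 12.0% in adipose and 13.8% and 17.3% in hypothalamus. Most of the Tle3 body was nearly free of methylation, with medians of 0.975%, 1.25% and 1.28% in adipose, hypothalamus and liver over 141 CpGs. The 3 other CpGs within 600 bp of the run had medians of 74.8% in liver, 38.6% in adipose and 16.9% in hypothalamus. Taok3 and Tle3 thus show both settings, a liver-methylated stretch in a gene methylated at most CpGs and one in a gene unmethylated at most CpGs.

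**Figure D4:**
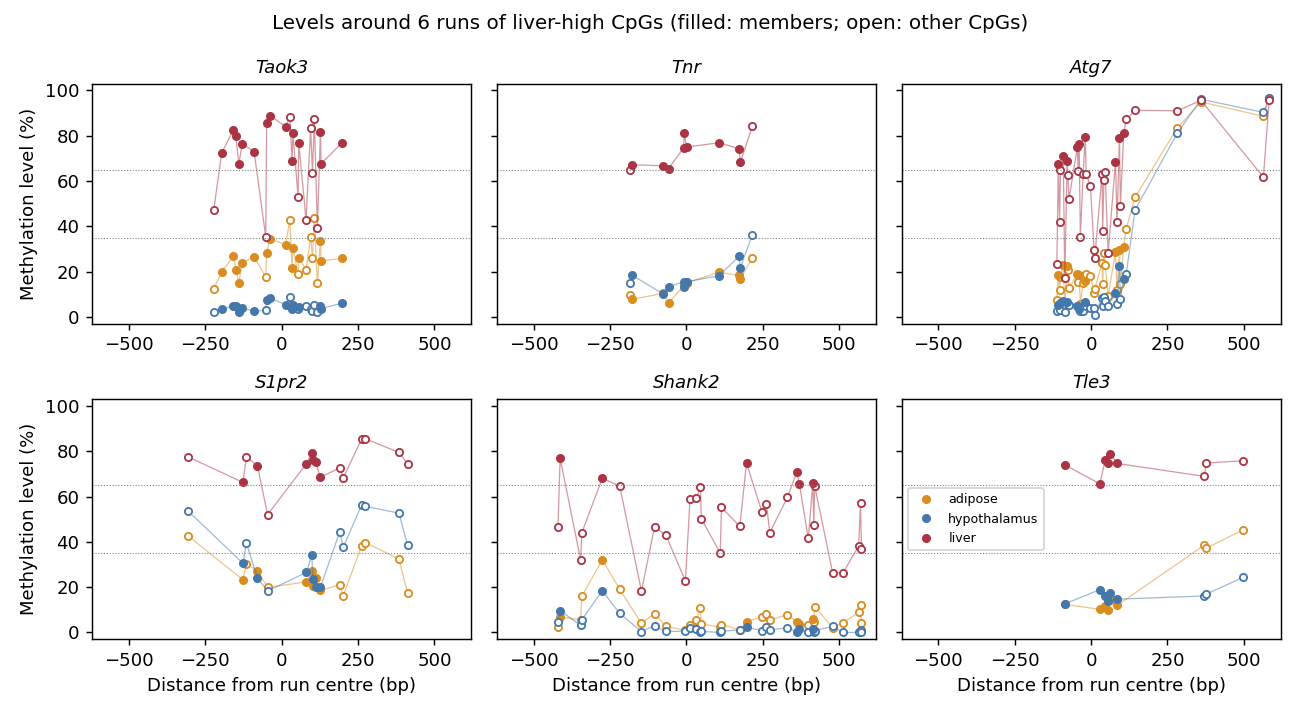
Methylation level over both pools (vertical axis, %) against distance from the centre of 6 runs (horizontal axis, bp), with members filled, other CpGs open and the limits of 65% and 35% as dotted lines. In Taok3 hypothalamus lies below adipose at every CpG, and all 27 other CpGs plotted around the Shank2 run are highest in liver.

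Other long runs had the same form. Slc25a25, a mitochondrial carrier for ATP-Mg and phosphate, had 6 members with medians of 71.3% and 68.5% in liver, 19.7% and 15.5% in adipose and 4.37% and 3.92% in hypothalamus. The deubiquitinase gene Usp46, whose body overlaps Gm52817 here, had the highest liver medians of the 15 leading runs, 81.8% and 82.7%, with 16.5% and 17.6% in adipose. Rapgef4, a cAMP-activated exchange factor for Rap, had 79.1% and 76.6% in liver and 29% and 24.7% in adipose. Hspa12a, an atypical member of the HSP70 family, had 78.8% and 77.0% in liver and 33.0% and 27.9% in hypothalamus. AI661453 held 8 members, with 73.6% and 68.2% in liver. The zinc finger gene Zfp385a and Gm46423 closed the list with 6 members each, at 72.1% and 71.0%, and 72.4% and 68.1%, in liver. By total members, 770 genes held at least 1 in the body or within 5 kb, 503 of them just 1, and 50 held at least 5. Mn1, a transcriptional coregulator, had 10, and Rgs3, a regulator of G protein signalling, Agap2, an Arf GTPase-activating protein, and Zfp385a had 8 each. Arhgef40 had 7.

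The 5 single members with the widest gaps at a depth of at least 100 reads in every pool had gaps of 64.1 to 70.7 points. Their liver levels over both pools were 65.4 to 88.9%, so part of the liver reads was unmethylated at each. In Tacc2, a centrosomal coiled-coil protein, chr7:130692736 was methylated in 78.9% of 194 control reads (interval 72.4 to 84.4%) and 70.4% of 135 BPA reads (61.9 to 77.9%) in liver. The adipose pools had 6.23% and 3.41% there and the hypothalamus pools 0.794% and 2.44%. In Klhl3, an adaptor of a cullin-3 ubiquitin ligase, chr13:58113146 had 69.0% of 210 and 63.5% of 159 reads in liver, 0.375% and 0.358% in adipose, and 1.64% and 0 of 126 reads in hypothalamus. The BPA pool of hypothalamus allows up to 2.89% at that depth, the upper end of its interval. In Bdh1, the mitochondrial 3-hydroxybutyrate dehydrogenase of ketone body metabolism, chr16:31428939 had 69.1% of 230 and 60.7% of 178 reads in liver, against 1.00% and 0.784% in adipose and 0.515% and 2.20% in hypothalamus. This CpG also lies in Gm15743. The remaining pair, both beside 2310043L19Rik, had 88.9% and 79.5% in liver over both pools, with at most 19.6% elsewhere.

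Among developmental transcription factors, 6 of 47 homeobox genes with readable CpGs held members, 3.15 per 1000 CpGs, against 523 of 16660 coding genes and 1.27 per 1000. They included Tshz2 with 6 members, Cux2 with 4 and Meis1 with 3. At chr5:121973619 in Cux2, liver had 88.1% and 92.4% in the control and BPA pools, adipose 31.0% and 34.6% and hypothalamus 38.7% and 31.3%. Of 32 mesenchymal and endodermal factors 5 held members, 3.61 per 1000 CpGs, among them Gata6 with 6, Gata4 with 4 and Foxp1 with 2. At chr6:99485715 in Foxp1, liver had 88.6% of 428 and 88.1% of 354 reads, adipose 15.9% and 14.4% and hypothalamus 28.5% and 28.0%. Both pools of each tissue lay within 2 points of each other at this Foxp1 CpG.

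Among signalling genes, the Wnt list had 4 of 44 (9.09%, against 3.14% of all coding genes), with 4 members in Wnt5b, a ligand, and others in the receptor tyrosine kinase-like gene Ror1 and in Tcf7l2, a nuclear effector of the pathway. In Ror1 chr4:100355987 had 88.9% of 72 and 93.0% of 43 reads in liver, 9.90% and 4.88% in adipose and 38.3% and 26.7% in hypothalamus. TGF-beta and BMP genes had 1 of 37 (Ltbp3, which binds latent TGF-beta, with 5 members), and Notch, Hedgehog and Hippo genes 2 of 35 (the receptor Notch1 with 4, its coactivator Maml3 with 2). Insulin and IGF genes had 1 of 35, the receptor Igf1r with 3 members. Actin and adhesion genes had 5 of 45, matrix genes 2 of 42 (Col18a1 with 3) and ion channels 6 of 41 (the potassium channel gene Kcnq1 with 3). Per 1000 CpGs the Wnt list held 2.10 members, actin and adhesion 1.38 and ion channels 1.69, against 1.27 over all coding genes. TGF-beta and BMP genes held 1.54, Notch, Hedgehog and Hippo genes 1.96, insulin and IGF genes 1.10 and matrix genes 1.07.

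Nuclear receptors and their cofactors had 6 of 40 genes with members. Nr5a2, a receptor active in hepatocytes and also on the list of hepatocyte factors, held 2. At chr1:136952604 in Nr5a2, liver had 75.2% of 121 and 71.6% of 102 reads, adipose 1.54% and 2.81% and hypothalamus 5.33% and 16.4%. Esr1, the oestrogen receptor alpha, was also among them, as were Thra, Rara and Rxrg, of which Esr1, Thra and Rxrg are named after their values were seen. DNA methylation machinery had 2 of 28, the de novo methyltransferase Dnmt3a with 2 members and Jarid2, a Polycomb cofactor. Imprinted genes had 1 of 32, H13. Per 1000 CpGs the nuclear receptor, methylation machinery and imprinted lists held 2.60, 1.41 and 0.445 members, against 1.27 over all coding genes. No member stood in the bodies of 25 glucose enzymes of other tissues or of 19 germline genes, with 1477 and 548 readable CpGs. All list counts are of members in gene bodies. Outside the body but within 5 kb, 1 member each lay by Ski (TGF-beta list), Pfkfb4 (glucose enzymes) and Onecut2 (hepatocyte factors), and 1 lay by both Col11a2 (matrix) and Rxrb (nuclear receptors, named after its value was seen).

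Marker genes of cell types were counted in the same way, beside 3.14% of all coding genes. Such shares depend on how many CpGs are readable in each gene. Per 1000 CpGs the neuron list held 1.30 members, leukocyte 2.82, endothelial 0.789 and astrocyte 7.61, against 1.27 over all coding genes. These rates rest on few members, 2 among 1540 CpGs for neuron, 1 among 355 for leukocyte and 1 among 1267 for endothelial. The astrocyte rate rests on 3 members among 394 CpGs, all in 1 run of 96 bp in Slc1a3. The secreted hepatocyte list had only 229 readable CpGs, and the epididymis and testis list 36. Secreted hepatocyte proteins had 0 of 24, hepatocyte factors 1 of 19, adipocyte 0 of 17, endothelial 1 of 21 (Flt1), leukocyte 1 of 16 (Ptprc, 6.25%), neuron 2 of 21 (Rbfox3 and Camk2a, 9.52%), astrocyte 1 of 11 (Slc1a3 with 3 members, 9.09%), oligodendrocyte 0 of 13, cholangiocyte 0 of 12, stellate and fibroblast 0 of 14, and epididymis and testis 0 of 7. As a check of the tissue labels, secreted hepatocyte genes were lowest in liver in 22 of 24 (median level 44.4%, against 82.7% in adipose and 88.1% in hypothalamus). Adipocyte genes were lowest in adipose in 9 of 17, with medians of 58.7%, 79.4% and 76.0% in adipose, hypothalamus and liver. Neuron genes were lowest in hypothalamus in 12 of 21, but their medians were 23.9%, 22.6% and 19.5% in the same order, and homeobox genes were lowest in hypothalamus in 27 of 47 as well, so this count does not check the hypothalamus label. Summed coverage over all CpGs listed ran from 213672622 reads in the control hypothalamus pool to 409016549 in the BPA adipose pool, each read counted at every CpG it covers.

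The difference between the BPA and control pools was not used by the rule. Differences are given as BPA minus control in percentage points. A CpG was called when the deposited Fisher's exact p, adjusted by Benjamini-Hochberg over all tested CpGs of its tissue, was under 0.05 and the pools differed by at least 5 points. In adipose 17 members were called (1.18%), 5 higher and 12 lower in the BPA pool, where 0.535% of 1876099 tested CpGs were called, 0.252% higher and 0.283% lower. Among other CpGs within the same range of adipose levels the share was 0.264%. Those CpGs varied less, with quartiles of -0.685 and 0.673 points for the difference, against -4.30 and 3.63 for the members. In each other class high or low in only 1 tissue the share called in adipose was higher, at 1.81 to 3.80%. At an unadjusted p under 0.05 stood 259 members (18.0%, background 10.1%). In hypothalamus no member was called (background 0.00586%), with 88 at an unadjusted p under 0.05 (6.13%, background 3.41%). In liver none was called either (background 0.0258%), with 110 at an unadjusted p under 0.05 (7.66%, background 4.21%). Among other CpGs in the same level range these unadjusted shares were 6.98% in adipose, 2.19% in hypothalamus and 6.21% in liver. In the other classes high or low in only 1 tissue they were 18.5 to 22.4%, 4.25 to 6.61% and 6.84 to 12.6%. The unadjusted shares of the members were thus not particular to this class. These tests compare pooled reads, and in adipose the pools differed over all CpGs by 1.91 times the squared difference that counting error gives, against 1.18 in both other tissues. With p-values scaled by that excess, 0 of the 17 calls in adipose were left.

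The smallest p among members was at a CpG in Fbxl7, an F-box protein (chr15:26837263), which fell in adipose from 47.4% of 116 reads (38.1 to 56.9%) to 19.2% of 151 reads (13.3 to 26.4%). This was a difference of -28.2 points (Fisher's exact test, adjusted p = 0.00259). Liver had 67.8% and 64.8% and hypothalamus 38.2% and 31.4% at this CpG. The control value of adipose thus lay above the 35% limit, and the member met the rule through the BPA pool. Control values above the limit were also found at called members in Rftn1 (42.4%), Gnao1 (42.3%) and Iqce (41.7%), and in Pde11a the BPA value was (36.3%). Gnao1 and Iqce are named after their values were seen. The control value was above it too in Afap1, an actin filament adaptor (chr5:35970883), which fell from 50.6% of 81 to 18.3% of 82 reads (Fisher's exact test, adjusted p = 0.0113), and in Rapgef4 (chr2:72038943), from 40.2% of 87 to 13.8% of 109 reads (adjusted p = 0.0164). In the Rapgef4 run all 6 members had lower adipose values in the BPA pool, with differences of -26.4 to -0.700 points. Some other runs with calls were mixed, with 3 members higher and 3 lower in Hspa12a and 2 higher and 3 lower in Klhl17.

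The call in Atg7 went the other way. At chr6:114738398 adipose rose from 10.3% of 252 reads (6.85 to 14.8%) to 25.8% of 299 reads (20.9 to 31.1%), adjusted p = 0.00458 by Fisher's exact test. Of the 9 members of that run 8 were higher in the BPA adipose pool, with a median difference of 7.20 points, while the median difference was -3 points in liver. St6galnac4, a sialyltransferase (chr2:32587796), fell from 29.3% of 256 to 13.2% of 288 reads. Klhl17, an actin-binding Kelch protein (chr4:156234071), fell from 29% of 193 to 12.1% of 215 reads, and Rftn1, a lipid raft protein (chr17:50150471), from 42.4% of 316 to 26.9% of 316. Pde11a, a cyclic nucleotide phosphodiesterase (chr2:76029826), rose from 17.4% of 178 to 36.3% of 171 reads, and its second member was 10.7 points higher. In Hspa12a, adjacent CpGs at chr19:58822719 and chr19:58822725 fell from 33.9% to 23.0% and from 21.3% to 12.5%, each at over 500 reads in both pools. For these 6 CpGs the adjusted p of Fisher's exact test lay between 0.00540 and 0.0295. The remaining 7 called members differed by -17.7 to 16.6 points.

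Whether the difference between pools itself differed between tissues was tested on log odds ratios of the pooled reads (two-sided Wald test), adjusted over all CpGs tested in both tissues. Adipose against liver gave 1 member, chr19:58822725 in Hspa12a (adjusted p of 0.0434, background 0.0493%), where adipose differed by -8.80 points and liver by 6.20 points. Adipose against hypothalamus and hypothalamus against liver gave 0 (backgrounds 0.0266% and 0.00375%, smallest adjusted p 0.0646 and 0.787). At an unadjusted Wald p under 0.05 stood 182, 179 and 109 members for the 3 pairs, or 12.7%, 12.5% and 7.59%, against 6.54%, 5.39% and 3.66% of all. At the Hspa12a CpG, adipose against hypothalamus gave an adjusted p of 0.768. So none of the 17 calls in adipose was shown to be particular to it, and 1 of 1436 members is a share near the background.

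In liver the members had lower levels in the BPA pool more often than not, by small amounts. The median difference was -1.80 points, with 893 members lower and 531 higher, and the methylated share was 72.5% of 261105 reads for control against 70.8% of 238406 for BPA. Counted by run, 555 of 890 were lower, and the median was below 0 on 18 of 19 chromosomes. Over all CpGs that the rule could choose the median liver difference was 0 with 49.0% lower, and over other CpGs in the same range of liver levels it was -0.100 points with 50.8% lower, against 62.2% of the members. At an unadjusted p under 0.05 stood 86 lower and 24 higher members (backgrounds 2.12% and 2.09%). In adipose and hypothalamus the median differences of the members were -0.300 and -0.800 points. In hypothalamus 55.1% of the members were lower, against 41.2% of all CpGs that the rule could choose. Among other CpGs in the same range of hypothalamus levels 28.7% were lower, but 96735 of these 537316 had equal values in both pools, against 14 members. Those CpGs also varied less, with quartiles of -0.134 and 1.19 points, against -4.70 and 3.09 for the members. The 2 shares therefore compare unlike sets. Counted by run, 497 of 890 were lower in hypothalamus, and the median was below 0 on 16 of 19 chromosomes. In adipose 51.8% of the members were lower, against 45.7% of all. However, 144122 of all 1275720 CpGs had equal values in the adipose pools, against 8 of the members. The mean adipose differences were close, at -0.168 points for the members and -0.140 points for all. A lower level of the members in the BPA pool was thus also seen in hypothalamus, while in adipose no shift apart from that of all CpGs was shown.

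The sign of the liver difference was shared by CpGs low only in adipose, with a median of -1.30 points and 1230 of 2102 lower. CpGs high only in adipose had a median liver difference of 1.40 points, with 94 of 237 lower. CpGs low only in liver had the opposite sign in the same liver pools, with a median difference of 2.90 points, 4165 of 5748 higher and 13 called, all higher. In both liver classes the BPA liver pool was thus nearer to the levels of adipose and hypothalamus than the control liver pool was. Lists of liver cell marker genes were not alike in the same liver pools. Of 24 secreted hepatocyte genes, 20 had a higher gene level in the BPA liver pool, with a median difference of 2.61 points. Gene levels ranged from 3.14 to 89.3% in the control pool and from 2.41 to 88.0% in the BPA pool. Most of these genes were lowest in liver, so their shift was not shown to be separate from that of CpGs low only in liver. Of 19 hepatocyte transcription factor genes, 10 were higher, with a median difference of 0.0383 points. Stellate and fibroblast genes were higher in 12 of 14, with a median difference of 0.205 points. For other cells of liver, 12 of 21 endothelial, 7 of 16 leukocyte and 5 of 12 cholangiocyte genes were higher, with median differences of 0.124, -0.552 and -0.171 points. The part of the share of hepatocytes in the liver difference was not tested, and with 1 pool a treatment it cannot be told apart from a change within cells or from differences between animals and litters.

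**Figure D5:**
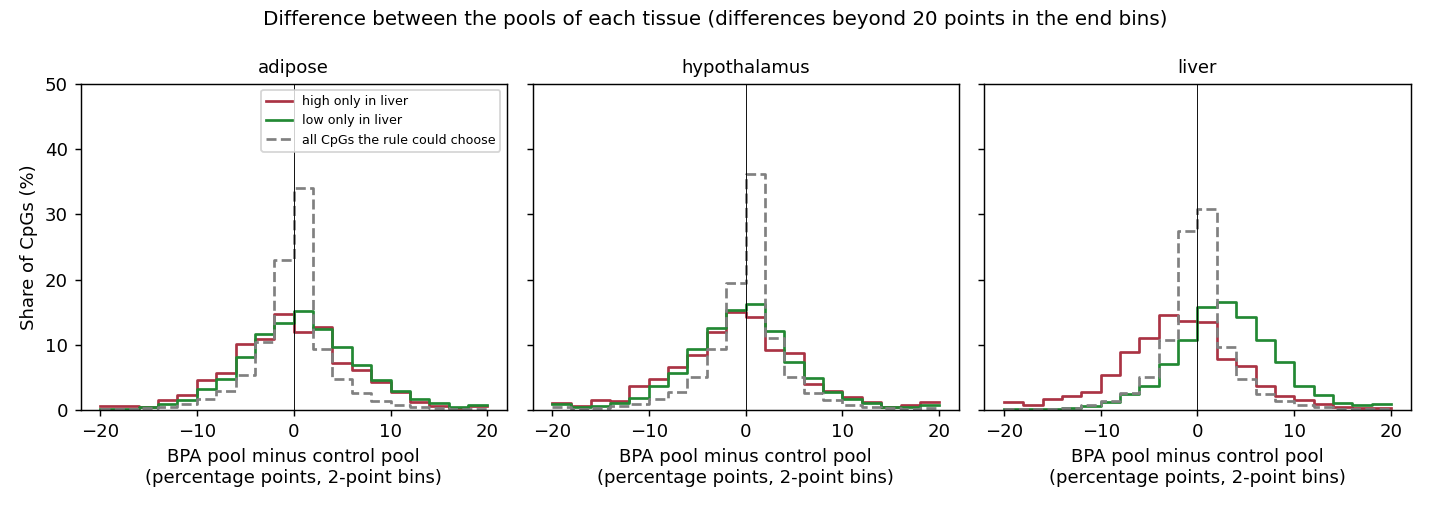
Share of CpGs (vertical axis, %) by difference between the BPA and control pools (horizontal axis, percentage points) in each tissue, for members, CpGs low only in liver, and all CpGs that the rule could choose. In liver the members are shifted to lower values (median -1.80 points) and the CpGs low only in liver to higher ones (2.90 points).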

How the data were processed

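DNA of 18 samples (100 ng each) was cut with MspI, bisulfite-treated and sequenced, per the labels' protocols. The submitters' processing notes name BSMAP as the aligner and GRCm38 as the build, and the version and any removal of PCR copies are not given in the sources used here. The authors deposited 1 table per tissue with a read count and a methylated fraction for each CpG and pool. They also deposited a Fisher p-value between the pools and a credible difference, a score used here only as an alternative. Per the file headers each CpG joins both strands, and positions, 0-based in the files, are given here 1-based.

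The members, gene lists and tests were chosen with earlier results of these data known. Methylated reads were taken as the count times the fraction, rounded to whole reads. CpGs with at least 10 reads in each pool were tested with the deposited p, adjusted by Benjamini-Hochberg over each table, and the Wald test added 0.5 to each cell. The statistics were tested on simulated data. Median depth per listed CpG in the control and BPA pools was 144 and 164 reads for adipose, 93 and 98 for hypothalamus, 136 and 127 for liver. Named are the 15 runs and 15 genes with the most members, up to 3 genes per list, up to 10 called members per tissue and the 5 widest gaps at 100 reads or more in each pool. Genes and promoters came from RefSeq tables of GRCm38.p6, and 2 list names (Nespas, Tf) did not match. Chromosome 18 promoters were not used here, and some items are not reported here. Alternatives covered the depth, the level limits, run and gene distances, call rules and summaries. Python 3.11.15, numpy 2.4.6, pandas 2.3.3, scipy 1.17.1 and matplotlib 3.10.9 were used.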

Additional observations from a re-analysis of the deposited data

Results flagged for a closer look

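In Hspa12a, chr19:58822725 stood out because the difference between the BPA and control pools had opposite signs in adipose and liver and the Wald test of that difference passed its threshold (adjusted p of 0.0434, from pooled reads). Adipose had 21.3% of 559 control reads and 12.5% of 576 BPA reads, and liver 68.2% of 491 and 74.4% of 429. The neighbouring member at chr19:58822719 gave an adjusted p of 0.0791 in the same test. Adipose against hypothalamus gave an adjusted p of 0.768 at chr19:58822725. This was 1 of 1436 members, against 0.0493% of all CpGs tested, and the adipose call at this CpG was lost with p scaled by the excess over counting error.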

How the results depend on the processing

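The number of liver-high CpGs depended on the limits. It was 66 with at least 75% in liver and at most 25% elsewhere, and 4086 with 60% and 40%. Depth minimums of 10 and 50 reads gave 1626 and 1132, control or BPA pools alone 1678 and 1494, a plain mean of the pools 1443, and leaving out the deepest 0.1% of CpGs 1436. Runs numbered 1017 or 874 with members at most 100 or 1000 bp apart, and 1157 members lay in a gene or within 1 kb. The 17 calls in adipose became 74 by the authors' credible difference and 0 with p scaled by the excess over counting error, and the credible difference gave 26 in hypothalamus and 29 in liver in place of 0. Other call rules gave 15 to 18 in adipose and 0 elsewhere. The median difference between pools stayed below 0 in all 3 tissues with reads summed (-0.197, -0.823 and -1.68 points in adipose, hypothalamus and liver) and with 1 value per run (-0.440, -0.700 and -1.50). It also did so in 2 alternatives chosen after seeing the data, without the Taok3 run and over the 777 members with at least 100 reads in each pool. No paired analysis was possible because the tables hold pools and no value per sample, and leaving out replicates was not run for the same reason. Near 20 reads a pool, counting error alone is wide, so members at the limits of the rule can change sides. At chr14:63241589 in Gata4, 60.7% of 28 reads in the BPA liver pool had an interval of 40.6 to 78.5%.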
